A study of Mus musculus with 22 samples.

Results

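Spermatogonial stem cells (SSCs), from which sperm production in the testis is maintained, were compared with mouse embryonic stem cells (ESCs) for the level of H/ACA small nucleolar RNAs (snoRNAs). The samples were chosen by their titles, 4 SSC samples and 3 ESC samples at day 0, which makes 7 of the 22 samples of the series. The SSCs are named primary cells by the study, and their descriptions carry a number (52 for sample 1, 72 for samples 2, 3 and 4, followed by the letter A in sample 3 and B in sample 4) and the mark "+G", none of which is explained. Samples 2, 3 and 4 may therefore share a source. The ESCs are of a line labelled aMHC-puro, taken at day 0 of a differentiation into cardiomyocytes in which the cells are later selected with puromycin. No strain, age, passage or number of animals is given for either group, and both were kept at 37°C in 5% CO2. Probes were counted on a NanoString nCounter, an instrument that counts barcoded probes bound to unamplified RNA, and the values are called normalized counts here. The code set holds snoRNAs and no protein-coding marker, so neither cell label could be checked against markers.

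An H/ACA snoRNA folds into a pair of hairpins joined by a short single-stranded H box and closed by the letters ACA near its 3′ end. It binds the proteins dyskerin, Nop10, Nhp2 and Gar1, pairs with a target RNA and directs the change of a uridine there into pseudouridine. Most targets lie in 18S and 28S ribosomal RNA (rRNA), while a few H/ACA snoRNAs act in the cleavage of the rRNA precursor. In mammals these RNAs are usually cut from introns of host genes, many of which encode ribosomal proteins or are non-coding Snhg genes (small nucleolar RNA host genes).

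Of 72 features in the table, 67 hold a value in all 7 samples and were compared, and 33 of these have a gene symbol, each within a host gene. The other 34 carry only a transcript ID. The 5 features left out are blank in all SSC samples, so the groups lie in different parts of the table, and a difference between the parts cannot be told apart from a difference between SSCs and ESCs. Total normalized counts over the 67 features were 1045169 to 1314424 in SSCs and 1496224 to 1620907 in ESCs, so the groups do not overlap in their totals. For that reason the comparison was made as deposited and after centring each sample on its median log2 value, which adds 0.23 to every log2 difference of SSC minus ESC. The labels do not say that samples of a group were grown or collected apart. Each p-value therefore reflects only sample-to-sample spread, which could be technical. Limma moderates the spread of each feature toward a spread pooled over features, also in the main fit (25.3 degrees of freedom from 7 samples). In fits of the deposited values that leave out an ESC sample, limma gave the features named here the same SE. Those p-values therefore reflect a spread pooled over features and not that of the feature itself.

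Sequence was at hand for parts of 2 of the compared snoRNAs, because RefSeq annotates a miRNA hairpin across them. They are shown since Snora36b was higher in SSCs and Snora34 was close to level. The Snora36b stretch is bases 50 to 113 of its 113 bases, chr1:185242975-185243038 on the plus strand of GRCm38.p6, shared with the hairpin of Mir664. Capitals mark the letters ACA 3 bases from the annotated end. The same letters stand at that distance from the end in 1.59% of 1005 miRNA hairpins in the table. The Snora34 stretch is bases 1 to 73 of 118, chr15:98519762-98519834 on the minus strand, shared with the hairpin of Mir1291. Capitals mark its 1 match to the H box letters ANANNA on the strand shown, a pattern held by the first 73 bases of 54.6% of 615 miRNA hairpins. The match lies within the annotated miRNA hairpin and need not be the H box, which joins hairpins.
Snora36b: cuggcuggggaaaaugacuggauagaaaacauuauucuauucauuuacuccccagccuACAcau
Snora34: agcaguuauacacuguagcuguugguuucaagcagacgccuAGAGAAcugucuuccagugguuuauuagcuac

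The annotated starts of host genes were also read, since several hosts of the snoRNAs that were lower in SSCs are of the Snhg class. Each window below holds the 20 bases before the start and 10 from it on, on the gene's strand of GRCm38.p6. Capitals mark a C followed by at least 4 bases that are each C or T, searched within 10 bases of the start on the gene's own strand. Such a run was present in 5 of 5 windows of Snhg hosts, 5 of 9 windows of ribosomal protein hosts and 25.5% of 32851 gene starts in the table. Snhg hosts are those whose symbol starts with Snhg. The window of Dancr, a non-coding host outside that class (Snora26, lower in SSCs), did not hold the run. The windows cover 27 hosts, and Zbed3, the host of Snora47, has several starts, with and without the run. No window was at hand for some hosts, among them Snhg4 (Snora74a, lower in SSCs) and Rpl32 (Snora7a, higher). By result, 3 of 9 windows of hosts with a snoRNA higher in SSCs, 4 of 8 with one lower and 8 of 13 with one not called held it. The Snhg7 window serves a snoRNA that was lower in SSCs (Snora43) and one that was not called (Snora17), and the Rpsa window, without the run, serves Snora62, which was higher. The windows lie at chr2:26640235-26640264 (Snhg7, minus strand), chr4:132353677-132353706 (Snhg3, minus), chr3:123508327-123508356 (Snhg8, minus), chr4:132308658-132308687 (Snhg12, plus), chr7:127511963-127511992 (Srcap, plus) and chr9:120127746-120127775 (Rpsa, plus).
Snhg7: gtggcgtggagatgctcggCCTCTCggcag
Snhg3: aggcatagtcgaccacgcctgaCTTCCggg
Snhg8: tgcgcgcaccgttcagaagtCTCTTTggct
Snhg12: gtgcaggccgttctcagtCCTTTCTCgctt
Srcap: gcgagcctacccgCCCCTTCagcctccagt
Rpsa: tggctgtgggttatttaaggacgtcatttc

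Many snoRNAs differed between SSCs and ESCs, in both directions. Across the 67 features, limma called 42 at an adjusted p under 0.05 (62.7%), of which 19 were higher in SSCs (28.4%) and 23 lower (34.3%). As deposited, at least 2-fold separated the group means in 26 of the 42, 11 higher and 15 lower. The samples of the groups did not overlap in 44 features (65.7%), of which 21 were higher in SSCs (31.3%) and 23 lower (34.3%). Both splits hold for the deposited scale only. With median centring Snora7a (1.06) and Snora81 (1.03), among others, passed 2-fold, while Snora24 (−0.81) and Snora44 (−0.78), among others, no longer did. After median centring 45 were called (67.2%), with 28 higher (41.8%) and 17 lower (25.4%), so the split of calls moved from 45.2% to 62.2% higher. All 19 that were higher and 17 of the 23 that were lower kept their call and direction, 6 lower calls were lost and 9 higher ones were gained. In 33 features, 17 higher and 16 lower, the call held in each of 5 scalings (deposited, median, mean, share of total and quantile). With SSC samples 2 to 4, which may share a source, averaged as 1 sample, 36 features were called (17 higher, 19 lower). Of the scalings, the last 3 called 71.6%, 73.1% and 68.7% of the features.

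**Figure D1:**
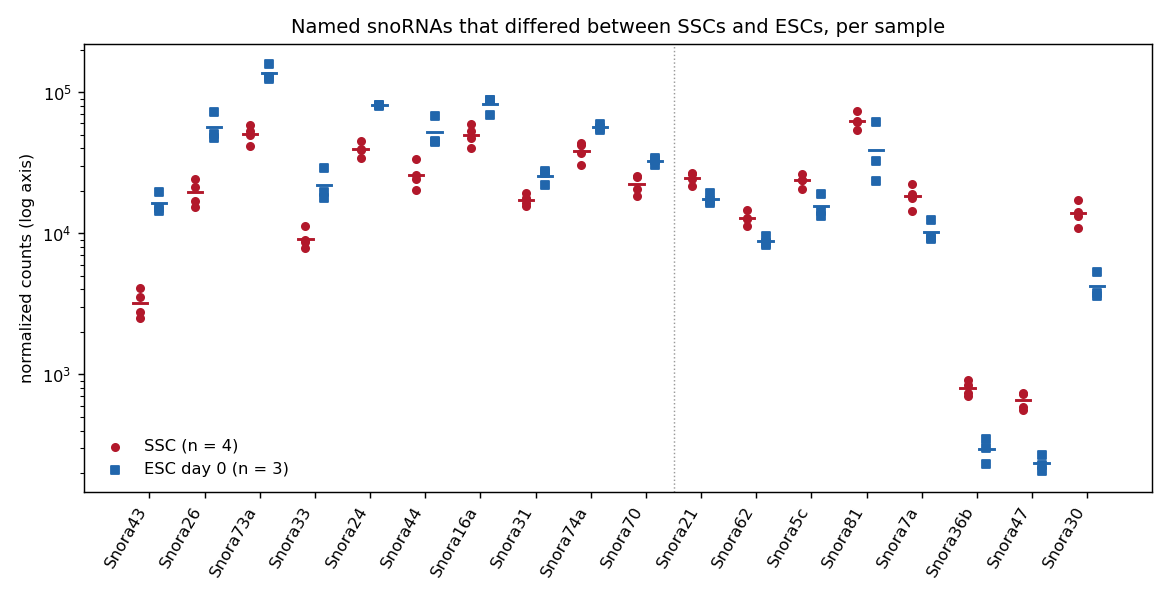
Normalized counts (log axis) of 18 snoRNAs with a gene symbol that differed between SSCs (circles, n = 4) and ESCs at day 0 (squares, n = 3), each point a sample and each bar a group mean, ordered by log2 difference with the dotted line between lower and higher in SSCs. In 17 of the 18 the groups do not overlap; in Snora81 1 ESC sample lies among the SSC samples.

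The order of the snoRNAs within a sample does not depend on how a sample was scaled. Between an SSC and an ESC sample, Spearman's rho over the 67 features was 0.824 to 0.879 in the 12 pairs, against 0.975 to 0.994 in the 6 SSC pairs and 0.957 to 0.993 in the 3 ESC pairs. These values describe features that share a probe set and are not replicates. Samples of a group were thus more alike in order than samples of different groups. The median absolute log2 difference was 0.618 to 0.814 between the groups, 0.149 to 0.386 among SSCs and 0.062 to 0.379 among ESCs. ESC sample 1 was the one farther from the others of its group.

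Snora73a and Snora74a, H/ACA snoRNAs with a known part in cleavage of the rRNA precursor, were both lower in SSCs as deposited. Targets and roles are those known from human or mouse. Snora73a (U17), from Snhg3, had 58270, 49358, 53296 and 41606 normalized counts in SSCs, against 157404, 124611 and 127285 in ESCs. Every SSC sample lay far below the lowest ESC sample. The log2 difference was −1.43 ± 0.18 (SE, limma adjusted p 1.62e-07), or −1.20 after centring (adjusted p 2.58e-05). Snora73a made up 4.18 ± 0.21% of the total in SSCs and 8.70 ± 0.93% in ESCs (SD, n = 4 and 3). Snora74a (U19), from Snhg4, averaged 38359 ± 5888 normalized counts in SSCs and 56461 ± 3138 in ESCs without overlap (log2 difference −0.57 ± 0.18, limma adjusted p 0.0079). Its call was lost after median centring (adjusted p 0.0636), as a share of the total (adjusted p 0.147) and under quantile normalization (adjusted p 0.152). RAW264.7 macrophages held 29382 to 35438 normalized counts of Snora74a, which overlaps the SSC samples, and NIH3T3 fibroblasts 56550 to 62744, above them.

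Among guides of 28S rRNA, Snora43 showed the largest deficit in SSCs of the 33 with a symbol. Its 4 SSC samples held 3511, 4086, 2767 and 2528 normalized counts, against 19617, 14427 and 15040 in the ESC samples. The groups were far apart, 5.12-fold lower in SSCs (log2 difference −2.36 ± 0.20, limma adjusted p 2.21e-10), and the 12 sample pairs ran from −2.96 to −1.82. NIH3T3 fibroblasts and RAW264.7 macrophages, which share the part of the table with SSCs, held 8598 to 9954 and 12428 to 13310 normalized counts, also above every SSC sample. Low levels were not particular to SSCs. Another ESC set of the series (set B, described below) held 3584 to 4161 and cardiomyocytes at day 16 held 3423 to 12592, which overlap the SSC samples. By order, Snora43 ranked 50 to 56 of 67 in SSCs and 27 to 36 in ESCs.

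Snora26, a guide of 28S rRNA from the non-coding gene Dancr, had 21291, 24195, 17056 and 15293 normalized counts in SSCs, against 72006, 50452 and 46937 in ESCs. The SSC samples lay well below, by 2.90-fold (−1.53 ± 0.20, limma adjusted p 2.14e-07), and its mean rank shift was −17.5 places (negative: lower in the order in SSCs). RAW264.7 held 20839 to 25555 normalized counts of Snora26, which overlaps the SSC samples, and NIH3T3 36439 to 41489, above them. Snora33, a 28S rRNA guide from the small-subunit protein gene Rps12, had 7848, 8921, 11317 and 8611 normalized counts in SSCs, against 28899, 19584 and 17770 in ESCs. It was 2.38-fold lower without overlap (−1.25 ± 0.20, limma adjusted p 4.86e-06), with a rank shift of −18.1 places. Snora26 and Snora33 kept their calls after centring, at −1.31 and −1.02.

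Snora30 was higher in SSCs. It guides 28S rRNA and lies in Srcap, which encodes a chromatin remodelling ATPase. It had 17326, 14073, 13309 and 10949 normalized counts in SSCs, against 5313, 3609 and 3746 in ESCs. All SSC samples were above all ESC samples, with a 3.30-fold difference (1.72 ± 0.20, limma adjusted p 2.59e-08) and pairwise values of 1.04 to 2.26, and it was 1.95 after centring (adjusted p 1.12e-06). NIH3T3 (3403 to 4003) and RAW264.7 (6749 to 7546) also lay below every SSC sample, while ESC set B (10392 to 13743) overlapped them. Its share of the total was 1.15 ± 0.12% in SSCs and 0.269 ± 0.052% in ESCs.

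Other 28S rRNA guides that were higher in SSCs came from ribosomal protein and translation factor genes. Snora7a, from Rpl32, had 22224, 17735, 18868 and 14322 normalized counts in SSCs, against 12335, 9238 and 9098 in ESCs (1.79-fold, 0.84 ± 0.19, limma adjusted p 0.000472). Snora21, from Rpl23, averaged 24763 ± 2440 in SSCs and 17453 ± 1554 in ESCs (1.42-fold, limma adjusted p 0.0147). In both, SSC and ESC samples did not overlap. NIH3T3 held 10951 to 15441 and RAW264.7 12225 to 15004 normalized counts of Snora7a, and both ranges overlap the SSC samples. For Snora21 they held 19055 to 21694 and 19063 to 21703, which also overlap the SSC samples. The call of Snora21 was lost without SSC sample 2 or 3 or ESC sample 2 or 3 (limma adjusted p 0.0541 to 0.0916). Snora81, from the initiation factor gene Eif4a2, had 54298, 61027, 73341 and 62581 normalized counts in SSCs, against 23507, 61065 and 32295 in ESCs. One ESC sample thus reached the SSC level, and 10 of 12 pairs were higher in the SSC sample. The log2 SD of Snora81 in ESCs was 0.701, beside a median of 0.223 over features, and limma drew its SE toward the pooled spread. The difference was 1.74-fold (0.80 ± 0.23, limma adjusted p 0.00421), but it was not called with SSC samples 2 to 4 averaged (adjusted p 0.145) or with samples of 7 groups fitted together (adjusted p 0.146), and it was 0.49 without ESC sample 1.

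Over the list of 28S rRNA guides, 5 of 13 measured members were higher in SSCs and 3 lower, and their median difference was 0.39 on the log2 scale. Of all 67 features 28.4% were higher and 34.3% lower, with a median of −0.07. After centring 7 were higher and 3 lower, beside 41.8% and 25.4% of all features, with a median of 0.62 against 0.16 over all features. Members not called as deposited were Snora17, Snora34, Snora52, Snora64 and Snora65. Together the 13 held 22.5 ± 0.9% of the total in SSCs and 17.5 ± 1.1% in ESCs. As shares of the total, 8 members were higher, beside 33 of all 67 features. The list as planned also named Snora3, Snora16a, Snora75 and Snora2b, which were left out because only members with a sure role were used. Of these, Snora16a was lower in SSCs as deposited (−0.72) and the others were not called (−0.33 for Snora3, 0.26 for Snora75 and 0.35 for Snora2b). After centring Snora16a was lower, Snora75 and Snora2b were higher and Snora3 was not called. No test set the list against other features.

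Guides of 18S rRNA went both ways. Snora36b, from Rab3gap2, had 910, 706, 841 and 739 normalized counts in SSCs, against 233, 347 and 302 in ESCs. It was among the least abundant features in both groups, and every SSC sample held more than 2 times the highest ESC sample. The difference was 2.74-fold (1.45 ± 0.19, limma adjusted p 1.69e-07). Its size depended on the scaling: the log2 difference was 1.68 after median centring and 0.48 under quantile normalization (limma adjusted p 0.0385). RAW264.7 held 1430 to 2035, above the SSC samples, and NIH3T3 282 to 323, within the ESC range. Snora5c, from Tbrg4, averaged 23657 ± 2385 in SSCs and 15492 ± 2948 in ESCs, 1.54-fold higher without overlap (0.62 ± 0.18, limma adjusted p 0.00465). RAW264.7 held 22396 to 26741 normalized counts of Snora5c, which overlaps the SSC samples, and NIH3T3 11393 to 12879, below them.

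Snora24, an 18S rRNA guide from Snhg8, had 39667, 44979, 38788 and 34067 normalized counts in SSCs, against 79329, 81387 and 80493 in ESCs. The ESC samples were close together and all SSC samples lay far below them (−1.04 ± 0.18, limma adjusted p 1.22e-05). Snora44, from Snhg12, had 33615, 24082, 25733 and 20284 in SSCs, against 67739, 44144 and 44823 in ESCs (−1.01 ± 0.20, limma adjusted p 0.000109). Snora70, from the large-subunit protein gene Rpl10, averaged 22348 ± 3335 in SSCs and 32608 ± 2108 in ESCs (−0.56 ± 0.18, limma adjusted p 0.00883). Snora24 and Snora44 kept their calls after centring (−0.81 and −0.78), while Snora70 did not (adjusted p 0.0686), nor without ESC sample 3 (adjusted p 0.0525). Of the 8 measured 18S rRNA guides, 2 were higher, 3 lower and 3 not called (median log2 difference −0.25), shares near those of all features (28.4% higher, 34.3% lower). After centring 3 were higher and 2 lower, with a median of −0.02. They held 14.4 ± 0.4% of the total in SSCs and 15.4 ± 0.5% in ESCs.

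**Figure D2:**
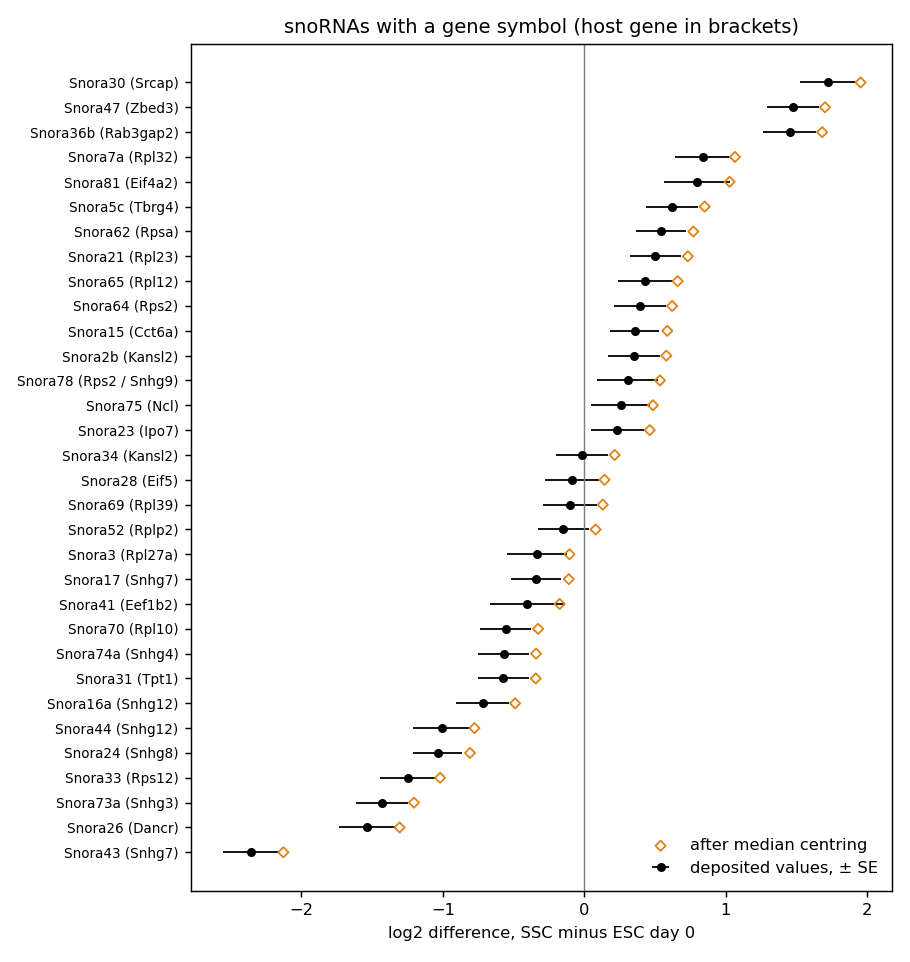
Log2 difference of SSC minus ESC day 0 for 32 snoRNAs with a gene symbol, as deposited (filled circles, bars ± SE from limma) and after median centring (open diamonds), with host genes in brackets. Centring moves each point to the right by 0.23, and Snora52, Snora69, Snora28 and Snora34 cross 0.

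Of the 8 snoRNAs in Snhg genes, 6 were lower in SSCs and 0 higher, where 34.3% of all features were lower. The class rests on symbols that start with Snhg, so Snora26, from the non-coding gene Dancr, is counted under other hosts. The median log2 difference of the 8 was −0.86, beside −0.07 over all features. The 6 are Snora43, Snora73a, Snora24, Snora44, Snora16a and Snora74a. Snora16a, from Snhg12, had 59246, 53383, 46974 and 40197 normalized counts in SSCs, against 69234, 88160 and 88096 in ESCs (−0.72 ± 0.19, limma adjusted p 0.0016). It was not called as a share of the total (adjusted p 0.0559) or under quantile normalization (adjusted p 0.48). Snora17 and Snora78 were the members not called, at −0.34 ± 0.18 and 0.31 ± 0.22. After centring 5 of 8 were lower and 0 higher, and 1 was higher without ESC sample 1 or as a share of the total (Snora78). Together the 8 held 19.7 ± 1.1% of the total in SSCs and 29.4 ± 1.2% in ESCs.

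Of the 12 snoRNAs in ribosomal protein genes, 4 were higher in SSCs (among them Snora7a, Snora62 and Snora21), 2 lower (Snora33 and Snora70) and 6 not called. The share that was higher is near that of all features, of which 28.4% were higher and 34.3% lower. The median log2 difference of the 12 was 0.35, beside −0.07 over all features. Snora78 lies within both Rps2 and Snhg9, which are on opposite strands, and counts in both classes. Its own strand was not read, so which of them is its host was not settled. Snora62 (E2), from Rpsa, had 12721, 12594, 14634 and 11289 normalized counts in SSCs, against 9493, 8287 and 8551 in ESCs (1.46-fold, limma adjusted p 0.00883). RAW264.7 held 11067 to 12212 normalized counts of Snora62, which overlaps the SSC samples, and NIH3T3 6249 to 7725, below them. Snora62 was not called without ESC sample 3 (limma adjusted p 0.0525). Without that sample 2 of the 12 were higher and 1 lower, and after median centring 6 were higher and 1 lower (41.8% and 25.4% of all features). As shares of the total, 7 were higher and 1 lower, beside 33 higher and 16 lower of all 67 features. The share of the total held by the 12 was 16.8 ± 0.5% in SSCs and 12.3 ± 0.9% in ESCs. Hosts that encode translation factors had 1 of 3 members higher (Snora81). Other hosts had 4 of 11 higher (Snora30, Snora47, Snora36b and Snora5c) and 2 lower (Snora26 and Snora31).

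Snora47, from Zbed3, which encodes a zinc finger protein, was the second of those by size. It had 736, 729, 592 and 556 normalized counts in SSCs, against 268, 206 and 229 in ESCs. The SSC samples were all above 2 times the highest ESC sample (2.77-fold, 1.47 ± 0.18, limma adjusted p 1.18e-07). Under quantile normalization, which gives a feature of the same rank the same value in every sample, it was not called (log2 difference 0.30, adjusted p 0.282); its rank was 64 to 66 in SSCs and 65 to 66 in ESCs. NIH3T3 held 1947 to 2113 and RAW264.7 954 to 1258, above both stem cell groups. Snora31, from Tpt1, averaged 17154 ± 1623 in SSCs and 25543 ± 3049 in ESCs (−0.57 ± 0.18, limma adjusted p 0.00678), and was not called after centring (adjusted p 0.0518).

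For snoRNAs of the same host gene, the ratio within a sample is not altered by a scaling factor of that sample. In all, 4 hosts hold 2 measured snoRNAs each within their span on either strand. The ratio of their counts was set between groups with an exact permutation test, whose smallest two-sided p with 4 against 3 samples is 0.0571. Probes differ in how well they capture their RNA, so the ratio itself has no meaning as a molar amount, only its difference between groups. In Snhg7, the log2 ratio of Snora43 to Snora17 was −2.99, −2.80, −3.20 and −3.15 in SSCs, against −0.84, −1.12 and −1.10 in ESCs. The groups stood far apart, by −2.02, and the p was the smallest possible (exact p 0.0571, adjusted over the 4 pairs 0.228). Snora17, itself a 28S rRNA guide, had 27895, 28510, 25475 and 22512 normalized counts in SSCs, against 35152, 31402 and 32146 in ESCs, which do not overlap but did not pass (−0.34 ± 0.18, limma adjusted p 0.0888). It passed as lower in SSCs after mean centring (adjusted p 0.0495) and with the samples of 4 cell types (adjusted p 0.0193) or of 7 groups (adjusted p 0.00822) fitted together. As a share of the total it was 2.16 ± 0.12% in SSCs and 2.10 ± 0.10% in ESCs, whereas Snora43 had 0.266 ± 0.049% and 1.04 ± 0.15%.

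The other 3 pairs overlapped between the groups. In Snhg12, the log2 ratio of Snora44 to Snora16a was −1.15 to −0.82 in SSCs and −0.998 to −0.031 in ESCs (difference −0.29, exact p 0.571). ESC sample 1 alone held the value near 0, and without it the difference was 0.03. In Rps2, Snora64 to Snora78 was 1.49 to 2.78 in SSCs and 1.72 to 2.44 in ESCs (difference 0.09, exact p 0.857), which became −0.09 without SSC sample 4 and −0.14 without ESC sample 1. Snora78 also lies within Snhg9 on the opposite strand, and its own strand was not read, so this pair may not share a host. In Kansl2, Snora2b to Snora34 was −0.80 to −0.49 in SSCs and −1.61 to −0.69 in ESCs (difference 0.37, exact p 0.229), where ESC sample 1 was again apart and the difference without it was 0.07.

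**Figure D3:**
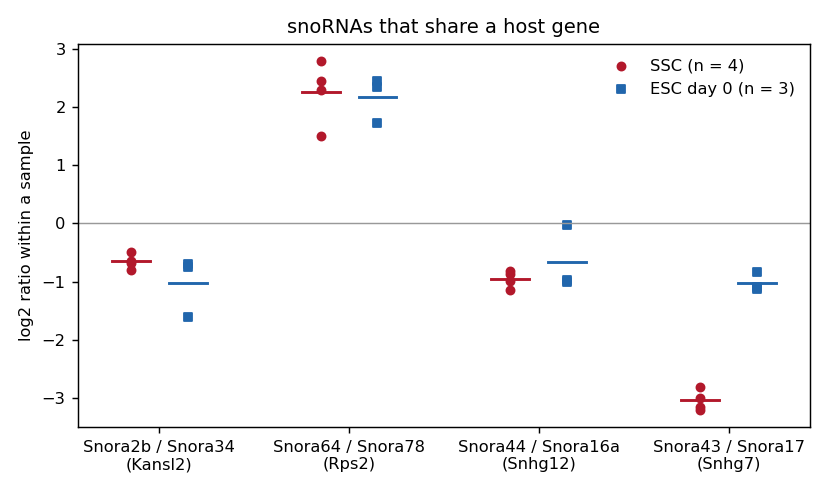
Log2 ratio of the normalized counts of 2 snoRNAs within each sample, for the 4 host genes with 2 measured snoRNAs in their span on either strand, in SSCs (circles, n = 4) and ESCs at day 0 (squares, n = 3), with bars at group means. In Snhg7 the SSC samples lie between −3.20 and −2.80, below all ESC samples at −1.12 to −0.84; the other pairs overlap.

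Snora64, a 28S rRNA guide of Rps2, depended on the scaling. It had 18574, 18585, 25991 and 23337 normalized counts in SSCs, against 16059, 16637 and 16224 in ESCs. All SSC samples were above all ESC samples, but the difference of 1.31-fold did not pass (0.39 ± 0.18, limma adjusted p 0.059). It passed after median centring (0.62, adjusted p 0.00512) and without SSC sample 1 (adjusted p 0.0331). In rank it stood 10.8 places higher in SSCs. Snora78 (0.31 ± 0.22) overlapped and passed as a share of the total (adjusted p 0.0126) and without ESC sample 1 (adjusted p 0.01). The latter fit used an SE pooled over features, while the log2 SD of Snora78 in SSCs was 0.421, beside a median of 0.207 over features. Snora2b, from Kansl2, was 1.28-fold higher without overlap (limma adjusted p 0.0888) and passed after centring (adjusted p 0.00523).

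Ranks set these shifts on a scale free of totals. Of the 67 features 12 stood at least 10 places higher in SSCs, 10 at least 10 places lower, and 20 moved by under 3 places. A rank orders probe counts and not molar levels. Large moves up among snoRNAs with a symbol were those of Snora30 (15.8 places), Snora7a (14.0), Snora5c (13.4), Snora81 (12.2), Snora21 (11.8) and Snora64 (10.8). The largest moves down were those of Snora43, Snora33 and Snora26, given above. Snora36b and Snora47 moved by 1.1 and 0.7 places, and both lay at the low end of the order in both groups, while their levels differed by over 2-fold. Snora73a was ranked 4 in every SSC sample and 1 or 2 in every ESC sample.

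**Figure D4:**
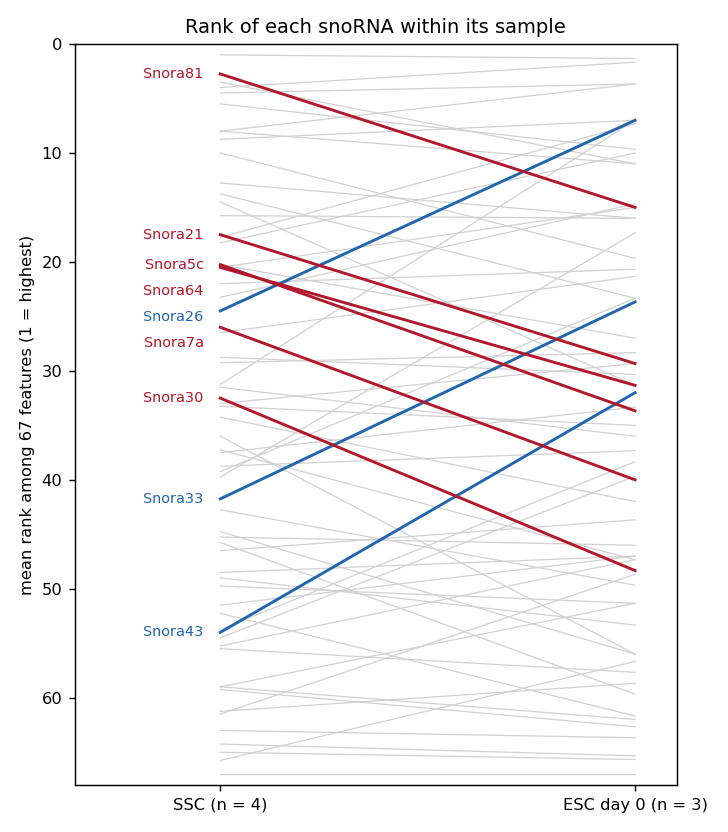
Mean rank among the 67 features by normalized counts within a sample (1 = highest), drawn for 66 of them, in SSCs (left, n = 4) and ESCs at day 0 (right, n = 3). Coloured lines are 9 snoRNAs with a symbol that moved by at least 10 places (red, higher in SSCs; blue, lower), and grey lines all others.

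The most abundant features held less of the total in SSCs. The 10 most abundant features of a sample held 43.0% of the total in SSCs and 50.7% in ESCs on average, and the 2 most abundant 14.0% and 18.5%. Of the abundant snoRNAs with a symbol, Snora81 held 5.25 ± 0.87% in SSCs and 2.49 ± 1.24% in ESCs, Snora16a 4.12 ± 0.37% and 5.25 ± 0.86%, and Snora24 3.27 ± 0.29% and 5.14 ± 0.24%. Scaled to their totals, 33 features were higher in SSCs and 16 lower.

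Several snoRNAs differed little as deposited. Snora34, a 28S rRNA guide, had 10267, 11954, 12359 and 10576 normalized counts in SSCs, against 13950, 10509 and 10022 in ESCs, with full overlap. Its log2 difference was −0.01, with a 95% confidence interval of −0.39 to 0.36. Snora28, an 18S rRNA guide of the initiation factor gene Eif5, differed by −0.09 (−0.48 to 0.30), Snora52, a 28S rRNA guide of Rplp2, by −0.15 (−0.52 to 0.22) and Snora69, a guide of one of the smaller rRNAs, from Rpl39, by −0.10 (−0.49 to 0.29). Snora3, from Rpl27a, had 29535 normalized counts in ESC sample 1, against 15637 and 14654 in the other ESC samples, and SSCs held 14311 to 15772. The intervals hold for the deposited scale only. After median centring the differences of Snora34, Snora28, Snora52 and Snora69 were 0.21, 0.14, 0.08 and 0.13, and none passed. As a share of the total, Snora34 passed as higher in SSCs (0.37, adjusted p 0.0446).

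Among the 34 features with no symbol, 10 were higher in SSCs, 13 lower and 11 not called, near the shares of all features (28.4% higher, 34.3% lower), with log2 differences from −2.18 to 2.49. The largest excess of all 67 features was that of ENSMUST00000104066.1, with 16173, 12242, 12428 and 10235 normalized counts in SSCs, against 2700, 2000 and 2088 in ESCs (5.62-fold, limma adjusted p 7.48e-11). ENSMUST00000083184.1 followed, at 7107 ± 1695 in SSCs and 1636 ± 383 in ESCs (4.33-fold, limma adjusted p 1.49e-09). ENSMUST00000104426.1 was 4.53-fold lower in SSCs (limma adjusted p 2.73e-10) and ENSMUST00000083274.1 4.23-fold lower (limma adjusted p 8.2e-10), at 14663 ± 1832 in SSCs and 62765 ± 13790 in ESCs. None of these 4 overlapped between the groups, and the rank shift of ENSMUST00000083274.1 was −24.2 places.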

How the data were processed

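The deposited table of the series holds 72 features in 22 samples as a signal per probe, scaled by the authors by a method that no source used here states. Per the labels' protocols, Trizol extraction was followed by DNase and a column clean-up. RefSeq accessions gave symbols to 34 features (GRCm38.p6), and a host is any gene whose span on either strand contains the snoRNA. Values were taken as log2(value + 1) over the 67 features without a blank and compared in limma 3.58.1 under R 4.3.3 (lmFit and eBayes on the 7 samples, two-sided, Benjamini-Hochberg over 67 features, threshold 0.05). Folds are 2 to the power of that log2 difference. Within each group no pair of samples held identical values. Named snoRNAs were those with the largest called differences in each direction (up to 12 with a symbol, 2 without), those sharing a host, the 6 most abundant with a symbol, the 4 with a symbol above the median level and the smallest difference, and 8 chosen by name. Members and lists were chosen with earlier results of these data known. Target lists hold only snoRNAs whose target was known with certainty. Ratios were tested in scipy 1.17.1. Alternatives changed the scaling, the pseudocount, the filter, the samples fitted and the replicate block. Of the called snoRNAs with a symbol, 1 counts in the totals and lists but is not reported here by name.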

Additional observations from a re-analysis of the deposited data

Results flagged for a closer look

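Values were present in data that the comparison does not use, and whether they lie above background is not known. The 5 features that are blank in SSCs held values above 3 normalized counts in every ESC sample at day 0. ENSMUST00000083277.1 held at least 58.1, ENSMUST00000104381.1 at least 41.01, Snora35 at least 35.63, ENSMUST00000116932.1 at least 23.92 and ENSMUST00000116744.1 at least 18.94 normalized counts. Snora35 lies in the serotonin receptor gene Htr2c and had 35.6, 41.4 and 36.5. These were the 5 lowest features of the ESC samples at day 0, the treatment of background is stated by no source used here, and whether a blank in SSCs stands for a low value was not tested. None of the 33 sets of SSC values checked (32 named features and the totals) had a sample far from the other 3.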

How the results depend on the processing

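Of 32 named features, 15 kept their call and direction under all 18 alternatives. Of 576 recomputed values 521 kept both, 20 lost the call, 14 gained it and 21 changed sign. Scaled to shares of the total 33 features were higher, against 19 as deposited. Leaving out 1 sample gave 39 to 46 calls (17 to 23 higher, 21 to 24 lower), or 41 to 51 after median centring, an alternative chosen after seeing the data. On the deposited scale, the fits without an ESC sample used an SE pooled over features. Averaging SSC samples 2 to 4, whose descriptions share a number, gave 36 calls. Both pseudocounts gave 42, and the filter at a mean of 100 removed no feature. Same-numbered samples did not deviate together (correlations 0.24, −0.04 and −0.15), and the fit with replicate number as a block gave 42 calls, 20 higher and 22 lower, without Snora81 (adjusted p 0.0834). The edgeR alternative was not run, since whole counts could not be recovered. Signs changed as follows. Median centring gave 0.21 for Snora34, 0.14 for Snora28, 0.0801 for Snora52 and 0.13 for Snora69, and mean centring 0.045 for Snora34. The share of total gave 0.0418 for Snora17, 0.37 for Snora34 (adjusted p 0.0446), 0.29 for Snora28, 0.23 for Snora52, 0.0465 for Snora3 and 0.28 for Snora69. Quantile normalization gave 0.0112 for Snora17, 0.22 for Snora28 and 0.10 for Snora69, and the block 0.0154 for Snora34. Leaving out 1 sample gave −0.11 to 0.13 for Snora34, −0.27 to 0.015 for Snora28 and −0.22 to 0.0461 for Snora69, −0.14 to 0.34 for the ratio of Snora64 to Snora78 and −0.45 to 0.0311 for Snora44 to Snora16a. The causes were not tested. The 224 recomputed rank shifts, each with 1 sample left out, moved by less than the spread between samples. Leaving out 1 sample cannot move a group mean beyond that spread, so this is no check of the order. The rank shift ran from 8.2 to 16.8 places for Snora81, −3.8 to 4.8 for Snora3 and −24.0 to −19.5 for Snora43. Signal over background is unknown, and 4 against 3 samples limit the exact tests.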

Other observations

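A pair of other ESC sets of the series, from a retinoic acid experiment, lies in the same part of the table as the ESCs at day 0. Their label fields contradict each other on which set was treated, so they are called set A (titled as treated, described as untreated) and set B (titled as plain ESCs, described as treated), with 3 samples each. For several snoRNAs the levels of set A lay near those of the day 0 ESCs and those of set B near the SSC levels. Snora43 had 2528 to 4086 normalized counts in SSCs, 3584 to 4161 in set B, 13893 to 14121 in set A and 14427 to 19617 in ESCs at day 0. Snora30 had 10949 to 17326 in SSCs, 10392 to 13743 in set B, 3352 to 3375 in set A and 3609 to 5313 in ESCs at day 0. Snora36b had 706 to 910 in SSCs, 771 to 1257 in set B, 234 to 312 in set A and 233 to 347 in ESCs at day 0.

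Other snoRNAs did not follow that pattern. Snora73a had 41606 to 58270 normalized counts in SSCs, 110526 to 141084 in set B, 119067 to 125976 in set A and 124611 to 157404 in ESCs at day 0. Snora26 had 15293 to 24195 in SSCs, 49209 to 56554 in set B, 49039 to 51344 in set A and 46937 to 72006 in ESCs at day 0. These snoRNAs were picked after their values were seen, and the likeness of set B to SSCs was not tested.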
